A study of Mus musculus with 4 samples.

Results

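Islet barcodes that carried large shares of both glucagon and insulin mRNA were described in 4 single-cell RNA libraries of mouse pancreatic islets. A barcode marks the RNA captured in a single droplet, and each captured RNA molecule is counted by its unique molecular identifier (UMI). Barcodes were taken when they had at least 500 genes, under 20% of UMIs from mitochondrially encoded genes, at least 5% from the glucagon gene Gcg, at least 10% from the insulin genes Ins1 and Ins2 together, and under 3% each from the somatostatin gene Sst and the pancreatic polypeptide gene Ppy. These limits found 315 barcodes among 6995 that passed on gene number and mitochondrial share, out of 11114 deposited. They are called glucagon- and insulin-rich barcodes here. The hormone levels chose them, so hormone shares are given as a description only.

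The mutant islets came from 2-month-old mice with floxed Atf4 alleles and Cre recombinase at the Ins1 locus (Atf4F/F; Ins1Cre), and the control islets from 2-month-old mice with the floxed alleles alone (Atf4F/F). Ins1Cre acts in cells that express Ins1, chiefly beta cells, so the deletion of Atf4, which encodes a stress-response transcription factor, is aimed at beta cells and not at alpha cells. The controls carried no Cre, so the loss of Atf4 and the presence of Cre at the Ins1 locus cannot be told apart here. Each group had 2 libraries, and each library pooled islets of 2 males and 2 females by the design text, or of 3 to 4 mice by the protocol. Beta cells positive and negative for the tdT reporter went into the same libraries, to which 10% K562 cells, a human leukaemia line, were added. With 2 pools per group, p-values measure the spread between pools and not between mice.

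Alpha cells release glucagon, which raises blood glucose, and beta cells release insulin, which lowers it. In the adult mouse islet the transcription factors Irx1 and Irx2 are characteristic of alpha cells, while Nkx6-1 and Pdx1 hold the beta cell programme. A droplet that holds an alpha and a beta cell, free hormone RNA, and a cell that makes both hormones can each give such a barcode. Which of these applied to any barcode was not tested, and the measurements that bear on it are given below beside those of alpha barcodes (Gcg at least 5%, insulin under 10%) and beta barcodes (insulin at least 10%, Gcg under 5%), all with Sst and Ppy each under 3%. There were 713 alpha barcodes and 4676 beta barcodes.

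The deposited libraries held 13706563 and 15453658 UMIs in mutant 1 and mutant 2, and 16729747 and 17655893 UMIs in control 1 and control 2. Of 10731 distinct barcode sequences, 375 occurred in at least 2 libraries, and 21 of the 315 glucagon- and insulin-rich barcodes (6.67%) had such a sequence, against 6.93% of all kept barcodes. The 315 barcodes together held 564816 and 858347 UMIs in mutant 1 and 2, and 458048 and 517100 UMIs in control 1 and 2. Replicate libraries of a group differed by more than counting noise, with a chi-square per degree of freedom of 2.46 for the mutant and 2.58 for the control sums of these barcodes.

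Glucagon- and insulin-rich barcodes made up 4.78% (67 of 1403) and 6.71% (115 of 1714) of kept barcodes in mutant 1 and 2, and 3.05% (61 of 1997) and 3.83% (72 of 1881) in control 1 and 2. Their exact (Clopper-Pearson) 95% intervals, which cover counting error only, were 3.72 to 6.03% and 5.57 to 8.0% in the mutants, and 2.34 to 3.91% and 3.01 to 4.80% in the controls. Both mutant libraries lay above both controls, by 2.30 percentage points on average. The exact two-sided permutation test over the 4 libraries gave p = 0.333, the smallest value it can give with 2 against 2. The gap was widest from 500 to 1000 genes, at 7.67 and 9.84% in the mutant and 2.21 and 3.32% in the control libraries. From 1000 to 2000 genes the groups overlapped, at 4.92 and 7.14% against 4.14 and 6.07%. From 3000 genes up they were 3.23 and 4.27% against 2.91 and 2.53%, and from 2000 to 3000 genes 4.00 and 6.27% against 2.62 and 1.89%. Alpha barcodes also differed in number between libraries, and as a share of alpha plus glucagon- and insulin-rich barcodes the figures were 33.0 and 32.2% in the mutant and 25.6 and 31.3% in the control libraries. Ins1, the locus of Cre in the mutants, enters the insulin limit. In beta barcodes it held 32.8 and 36.7% of insulin UMIs in the mutant and 39.4 and 40.8% in the control libraries. Its part in the shares was not tested.

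The members' own Gcg share had library medians of 8.48 and 8.38% in the mutant and 8.35 and 7.03% in the control libraries, while alpha barcodes had 24.8 to 27.3%. Insulin held a median of 31.8 and 31.1% of UMIs in the mutant members and 30.1 and 34.4% in the control members, against 37.1 to 43.0% in beta barcodes. The members thus held less of each hormone than the class named for it. The Gcg limit cut through a continuous tail: among barcodes with at least 10% insulin, 346 had 2 to 5% Gcg, 214 had 5 to 10%, 73 had 10 to 15% and 28 had more. The insulin limit fell in a gap, as 6 Gcg-rich barcodes had 3 to 5% insulin, 4 had 5 to 10% and 43 had 10 to 20%. The 10 members nearest the Gcg limit held 5.02 to 5.21%, and the 10 barcodes just outside it 4.90 to 4.99%.

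**Figure D1:**
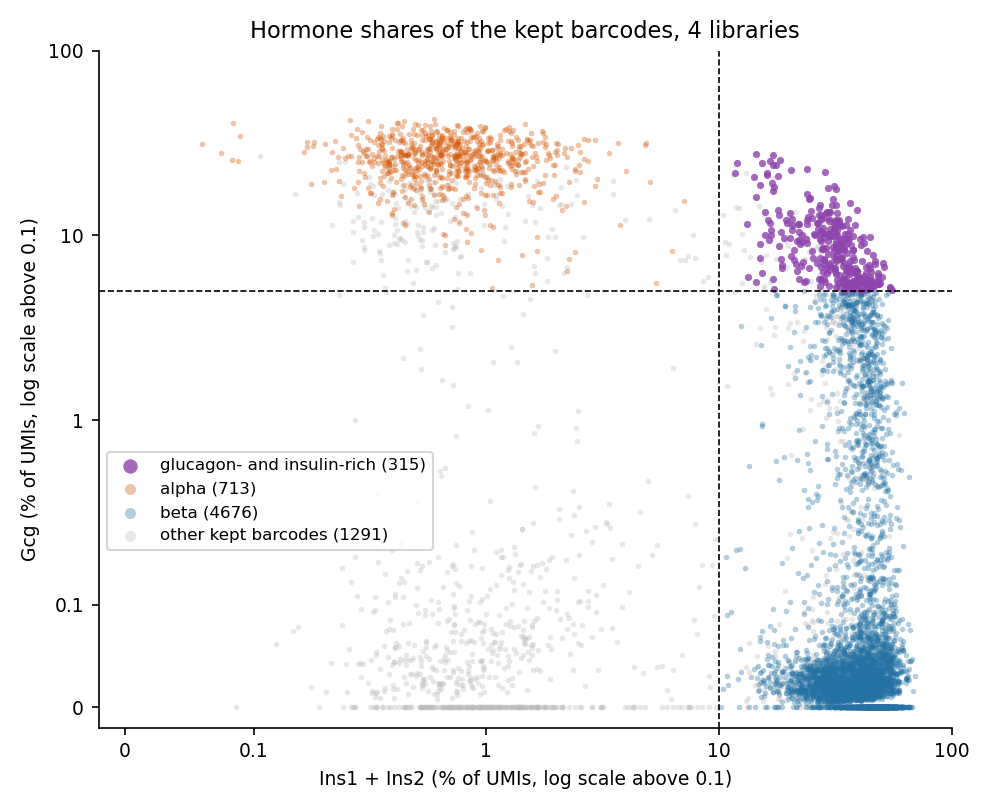
Share of UMIs from Ins1 and Ins2 (horizontal) and from Gcg (vertical) in each of the 6995 kept barcodes of the 4 libraries, on axes that are logarithmic above 0.1%; dashed lines mark the limits of 10% and 5%. The 315 glucagon- and insulin-rich barcodes (purple) sit at the top of a tail of beta barcodes (blue) that reaches up to the Gcg limit, and stand apart from the 713 alpha barcodes (orange).

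Depth was the first measure that the rule did not use. Glucagon- and insulin-rich barcodes were not deeper than both single-hormone classes: their median was 4596 and 4899 UMIs in the mutant and 4781 and 4712 UMIs in the control libraries. Alpha barcodes had medians of 4869 and 3632 UMIs in the mutant and 3734 and 4327 UMIs in the control libraries, and beta barcodes 7642 and 7785 UMIs in the mutant and 5887 and 6270 UMIs in the control libraries. The members lay below beta barcodes in 4 of 4 libraries, by 0.53 ± 0.21 on the log2 scale (SD over 4 libraries; exact sign-flip p = 0.125, the smallest possible), and above alpha barcodes in 3 of 4, by 0.21 ± 0.23 (p = 0.25, exact sign-flip test). Their median came to 0.367 and 0.429 of the sum of the alpha and beta medians in the mutant and 0.497 and 0.445 of it in the control libraries. Without the 5 gate hormones (Gcg, Ins1, Ins2, Sst and Ppy) the sign against alpha barcodes turned, to -0.11 ± 0.17 on the log2 scale.

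Members ran from 944 to 53363 UMIs, and 87 of the 315 (27.6%) had over 8000, against 19.8% of alpha and 44.2% of beta barcodes. Among barcodes over 8000 UMIs the median was 15379 UMIs and 4074 genes in members, 10447 UMIs and 3390 genes in alpha barcodes, and 15343 UMIs and 3859 genes in beta barcodes. Deep members and deep beta barcodes thus had close medians in UMIs, above that of deep alpha barcodes. No alpha barcode exceeded 25437 UMIs.

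Gene number followed depth. The members' median was 1571 and 1555 genes in the mutant and 1622 and 1580 genes in the control libraries, which was 0.377 to 0.496 of the alpha and beta medians added together. Thinned to 1500 UMIs outside the gate hormones, members had a median of 1018 and 1032 genes in the mutant and 991 and 1014 genes in the control libraries. At the same depth alpha barcodes had 1034 and 1037 genes in the mutant and 1005 and 1030 genes in the control libraries, and beta barcodes had 1015 genes in each mutant and 980 and 1000 genes in the controls. The ranges of the 3 classes overlapped, and members lay below alpha and above beta barcodes in 4 of 4 libraries. Their mitochondrial share had library medians of 1.09 to 2.72%.

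**Figure D2:**
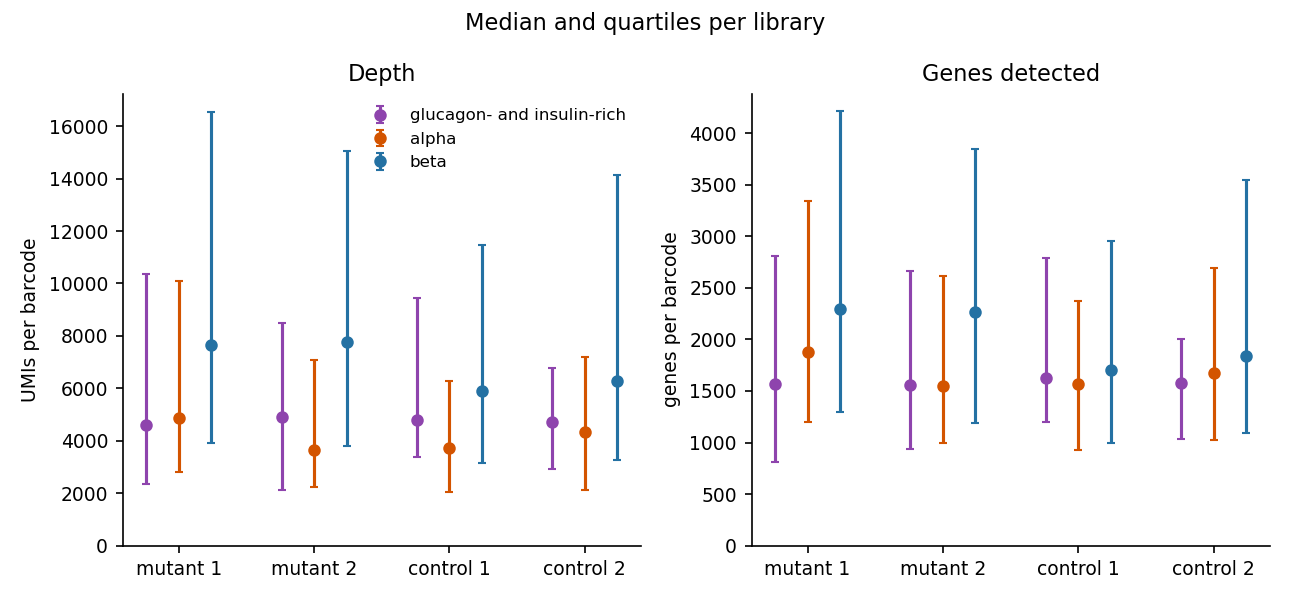
UMIs (left) and genes (right) per barcode in each library, as the median (point) with the lower and upper quartiles (bars), for glucagon- and insulin-rich, alpha and beta barcodes. Members have medians of 4596 to 4899 UMIs, below the beta medians of 5887 to 7785 UMIs in every library.

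Barcodes below the limit of 500 genes were looked at for the same hormone limits. The share inside them was 6.75% (151 of 2236) under 200 genes, 5.58% from 200 to 500, 5.22% from 500 to 1000, 5.54% from 1000 to 2000, 3.70% from 2000 to 3000 and 3.24% (64 of 1978) from 3000 genes up. With the libraries together, the share was thus higher in small barcodes than in large ones. Under 200 genes it was 10.0 and 9.26% in the mutant and 3.55 and 5.33% in the control libraries. From 3000 genes up it was 3.23 and 4.27% in the mutant and 2.91 and 2.53% in the control libraries. The fall was not steady: control 1 was lowest from 500 to 1000 genes (2.21%) and control 2 highest from 1000 to 2000 genes (6.07%). Barcodes led by endothelial, macrophage, lymphocyte or mesenchymal genes (at least 1% of UMIs) gave the level of hormone in droplets of another cell type. These 206 barcodes had a median of 0.0297% Gcg and 1.05% insulin at a median of 2029 UMIs, and 0 of them met the hormone limits. Taken singly, the Gcg limit of 5% was reached by 4 of them, with up to 24.7% Gcg, and the insulin limit of 10% by 7.

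The limits were also set for every other pair of islet hormones, at 5% for Gcg, 10% for insulin and 3% for Sst and for Ppy. Barcodes past 2 limits and under the others were counted per 100 of the product of the 2 single-hormone classes divided by kept barcodes, summed over libraries. Gcg with insulin came to 67.1 (315 barcodes), against 109 for insulin with Ppy (74), 142 for insulin with Sst (245), 391 for Gcg with Sst (110), 625 for Gcg with Ppy (62) and 1332 for Sst with Ppy (52). By library the ratio for Gcg with insulin was 78.5 and 79.8 in the mutant and 47.9 and 64.0 in the control libraries. Since the limits differ between hormones, the pairs are not on equal terms. Insulin with Ppy rested on control 2 (351): without that library its ratio was 67.7, beside 68.1 for Gcg with insulin. In mutant 1 insulin with Sst (73.6) and insulin with Ppy (77.4) also lay below Gcg with insulin.

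Both transcription factor sets were present in the glucagon- and insulin-rich barcodes at intermediate levels. Levels are given in CPM, counts per 1000000 UMIs other than those of the 5 gate hormones, from the summed barcodes of each library. Irx1, a homeobox factor of alpha cells, stood at 83.2 and 96.9 CPM in mutant members and 139 and 115 CPM in control members. Alpha barcodes had 206 and 240 CPM in the mutant and 301 and 358 CPM in the control libraries, and beta barcodes 1.46 to 4.34 CPM. These library sums did not overlap for Irx1 between members and alpha barcodes or between members and beta barcodes. Beta barcodes near the Gcg limit were closer to members. Among barcodes with at least 10% insulin, Irx1 and Irx2 together had 3.88 CPM below 0.5% Gcg and 82.3 CPM from 2 to 5%. They had 176 CPM from 5 to 10% Gcg and 276 CPM from 10 to 15%. Irx1, Irx2, Pou3f4 and Etv1 had 15 UMIs in the 10 members nearest the limit and 13 in the 10 barcodes just outside it.

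Irx2, a related homeobox factor, averaged 111 ± 27.1 CPM in members (SD, n = 4 libraries), against 262 ± 50.5 CPM in alpha barcodes and 5.04 ± 1.13 CPM in beta barcodes. Etv1 averaged 220 ± 52.0 CPM in members, 494 ± 86.5 CPM in alpha and 23.8 ± 7.72 CPM in beta barcodes. Pou3f4, a rare alpha cell factor, had 2 UMIs in all members, too few to place.

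Nkx6-1, which keeps beta cells from taking other islet fates and is a marker of the set, stood at 292 and 267 CPM in mutant members and 258 and 332 CPM in control members. Beta barcodes had 450 and 408 CPM in the mutant and 414 and 520 CPM in the control libraries, and alpha barcodes 24.6 to 51.8 CPM. Pdx1, an activator of the insulin gene, averaged 203 ± 17.5 CPM in members, against 8.84 ± 5.44 CPM in alpha and 284 ± 18.8 CPM in beta barcodes. Neither gene overlapped between members and alpha barcodes or between members and beta barcodes. Mafa, a factor of mature beta cells, had 0 UMIs in members and 4 in all beta barcodes, so it was not measurable in these libraries. Nkx6-1 was seen in 156 of 315 members (49.5%), in 10.7% of alpha barcodes and in 71.0% of beta barcodes.

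On a scale on which the beta level is 0 and the alpha level is 1, the 3 measurable alpha transcription factors lay at 0.386 to 0.418, with a median of 0.410. Nkx6-1 lay at 0.390 and Pdx1 at 0.294. A gene was placed on this scale when its higher class reached 20 CPM and differed at least 2-fold from the lower class. Other genes of the alpha programme, among them Ttr (transthyretin), Gc (vitamin D-binding protein) and the amino acid transporters Slc7a2 and Slc38a5, lay at 0.303 to 0.415, with a median of 0.375 over 7 genes. Other beta genes, among them Iapp (amylin), the glucose transporter Slc2a2, G6pc2, Ucn3 and Trpm5, lay at 0.309 to 0.475, with a median of 0.385 over 9 genes. Both programmes were thus placed alike, at about the same distance from beta barcodes.

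Ttr, the most abundant of the alpha genes, had 11437 and 11395 CPM in mutant members and 8745 and 8256 CPM in control members. Alpha barcodes had 26347 and 25572 CPM in the mutant and 22051 and 21432 CPM in the control libraries, and beta barcodes 1363 to 2076 CPM. Iapp, co-secreted with insulin, had 53387 and 54797 CPM in mutant members and 57762 and 64796 CPM in control members. Beta barcodes had 74228 and 80804 CPM in the mutant and 85811 and 88565 CPM in the control libraries, and alpha barcodes 1781 to 3481 CPM. For both genes the members lay between the classes in every library.

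Most transcription factors that all islet endocrine cells share had similar levels in the 3 classes. Nkx2-2 averaged 163 ± 16.7 CPM in members, 162 ± 20.3 CPM in alpha and 160 ± 11.0 CPM in beta barcodes. Rfx6 averaged 245 ± 31.2 CPM in members, 253 ± 24.7 CPM in alpha and 240 ± 30.7 CPM in beta barcodes. Insm1, a zinc finger factor of endocrine cells, averaged 179 ± 33.6 CPM in members, 91.5 ± 16.9 CPM in alpha and 267 ± 26.9 CPM in beta barcodes. Of 11 progenitor and dedifferentiation genes, 0 met the limits for the scale above, and most had only a few CPM. Their order among the classes is therefore not read. Neurog3, the factor that starts endocrine development, stood at 0 to 3.66 CPM in members, and Aldh1a3 at 0 in 3 of 4 libraries.

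**Figure D3:**
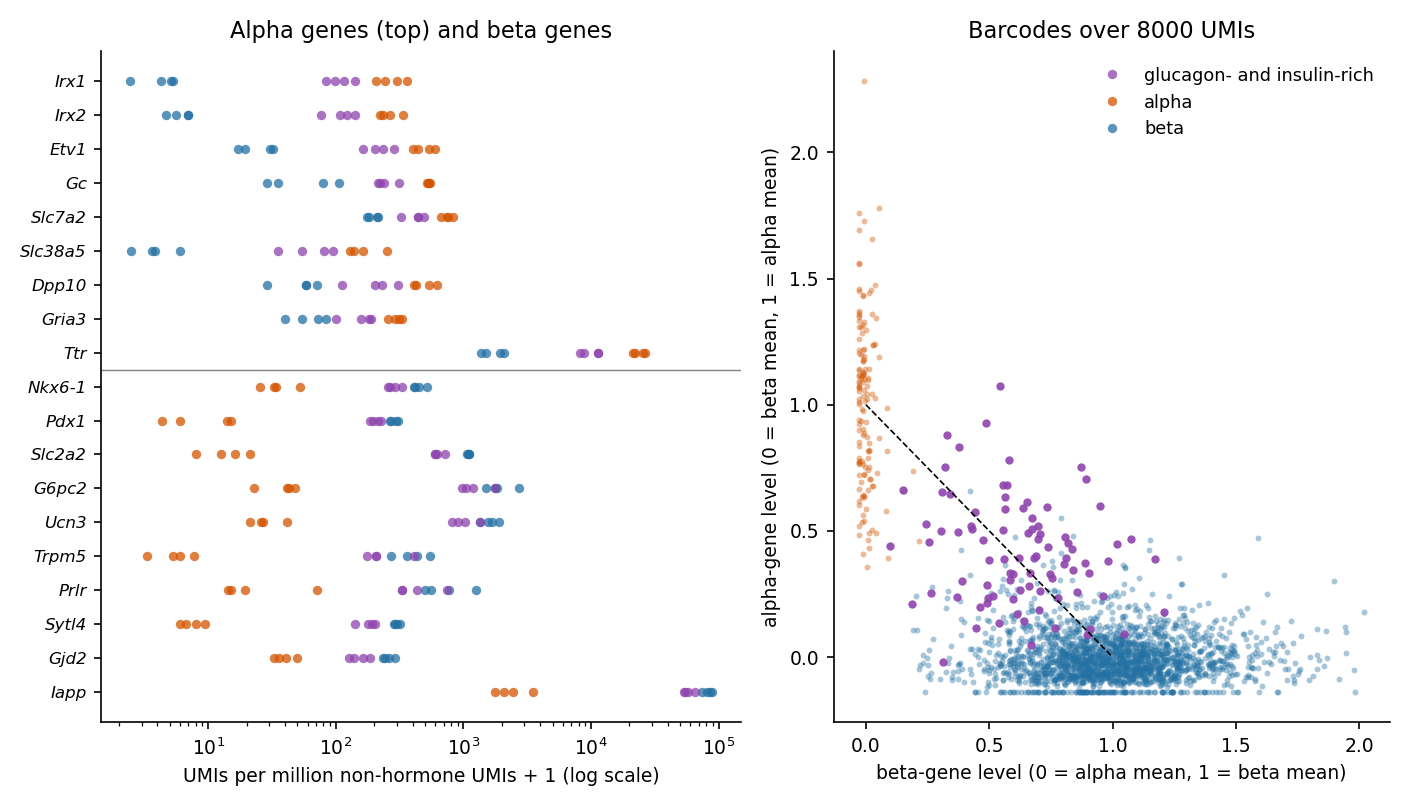
Left, level of 9 alpha genes and 10 beta genes in each of the 4 libraries, in CPM plus 1 (UMIs per 1000000 non-hormone UMIs), on a log axis, for glucagon- and insulin-rich, alpha and beta barcodes. Right, summed level of 11 beta genes (horizontal) and 10 alpha genes (vertical) in each barcode over 8000 UMIs, scaled to the alpha and beta means, with a dashed line from the beta mean to the alpha mean; 82 of the 87 members lie above 0.1 on both axes.

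The alpha and beta factors occurred in the same barcodes. Among barcodes over 8000 UMIs, 85 of 87 members (97.7%, exact 95% interval 91.9 to 99.7%) held at least 1 UMI of an alpha factor (Irx1, Irx2, Pou3f4 or Etv1) and at least 1 of a beta factor (Nkx6-1, Mafa or Pdx1). The same held for 25.5% of alpha (36 of 141) and 22.4% of beta barcodes (463 of 2066) at that depth. Barcodes rich in insulin and another hormone also held both sets often, in 44 of 57 (77.2%) of those rich in insulin and Sst and in 7 of 9 of those rich in insulin and Ppy. With Irx1 and Irx2 as the only alpha factors the shares were 83.9% of members, 24.8% of alpha and 6.10% of beta barcodes, beside 12.3% (7 of 57) and 22.2% (2 of 9) of the insulin- and Sst-rich and the insulin- and Ppy-rich barcodes. The shares were smaller at lower depth: from 3000 to 8000 UMIs both sets were seen in 43.3% of members (58 of 134), 12.9% of alpha and 5.38% of beta barcodes, and up to 3000 UMIs in 14.9% of members (14 of 94), 3.97% of alpha and 2.93% of beta barcodes.

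Thinning each barcode to 3000 UMIs, which left out 94 members, 277 alpha and 955 beta barcodes with fewer, set all barcodes to the same total. Both factor sets were then expected in 26.9 and 28.9% of members in the mutants and 26.5 and 27.3% of members in the controls. The shares were 5.13 to 9.57% in alpha and 2.31 to 4.36% in beta barcodes. Members exceeded alpha barcodes by 20.1 ± 2.24 and beta barcodes by 24 ± 0.551 percentage points (SD, n = 4), in 4 of 4 libraries each, with p = 0.125 in the exact sign-flip test, the smallest it can give. At this total alpha barcodes had 1370 to 1410 genes, against 1141 to 1193 in members. Thinned to 1500 UMIs outside the gate hormones, 19.1 to 24.1% of members, 2.97 to 4.92% of alpha and 1.81 to 3.15% of beta barcodes were expected to hold both sets. Without thinning the share was 49.8% of members, 11.9% of alpha and 12.4% of beta barcodes.

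**Figure D4:**
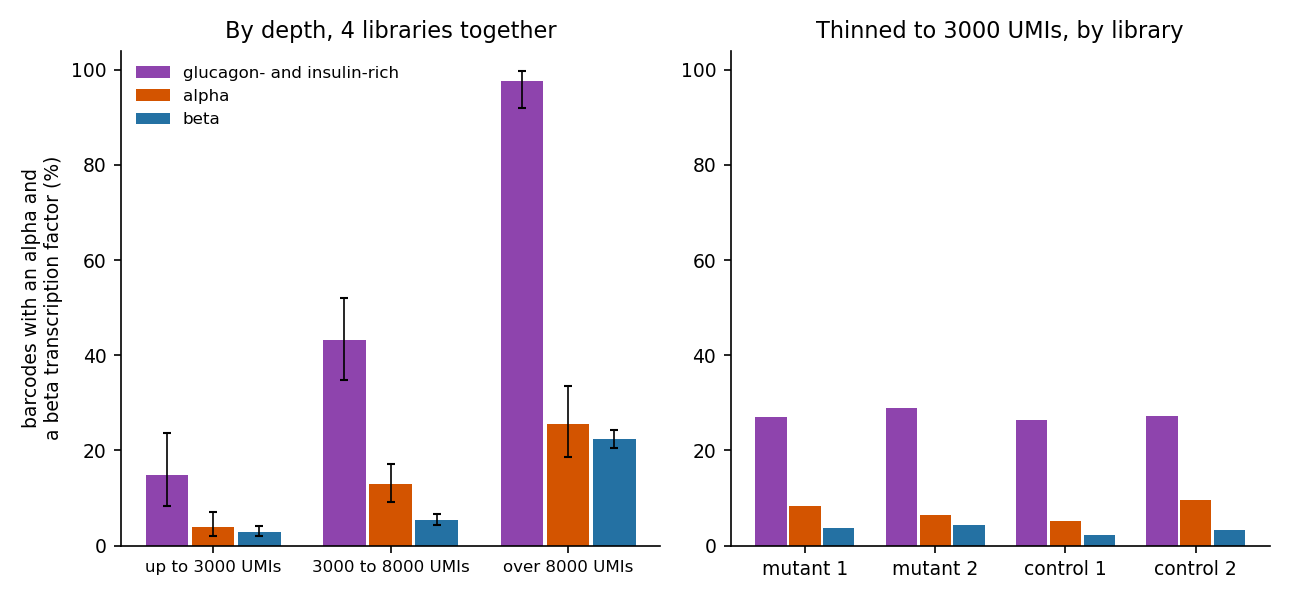
Share of barcodes with at least 1 UMI of an alpha and of a beta transcription factor, for glucagon- and insulin-rich, alpha and beta barcodes. Left, by depth with the 4 libraries together and exact 95% intervals (97.7% of members over 8000 UMIs); right, expected share after thinning to 3000 UMIs in each library (26.5 to 28.9% of members).

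The deep members varied widely in their balance. Over 8000 UMIs, the summed level of 10 alpha genes (without Ttr and Pcsk2), scaled so that deep beta barcodes average 0 and deep alpha barcodes 1, had a median of 0.392 in members, with quartiles of 0.255 and 0.523 and a range of -0.0193 to 1.07. The summed level of 11 beta genes, scaled so that deep alpha barcodes average 0 and deep beta barcodes 1, had a median of 0.623, with quartiles of 0.482 and 0.773. The 2 values of a member added up to a median of 1.06. Above 0.1 on both scales lay 82 of 87 members (94.3%), 3 of 141 alpha barcodes and 265 of 2066 beta barcodes. Across these 87 barcodes, which share 4 libraries and have unequal depth, the alpha-gene level ran with the Gcg share at Pearson's r = 0.49 and against the beta-gene level at r = -0.21. By library, over 16 to 32 barcodes, the first ran from 0.21 to 0.77 and the second from -0.31 to 0.14, with the positive value in control 2. The Gcg share is a value that chose the members.

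The number of factor UMIs per hormone UMI was also compared between classes. The hormones are values that chose the classes, so these ratios are a description only. Irx1 and Irx2 together had 1.40 and 1.21 UMIs per 1000 Gcg UMIs in mutant members and 1.96 and 1.84 in control members, beside 1.35 in the alpha barcodes of each mutant and 1.81 and 2.13 in those of the controls. After correction of hormone counts for UMI collisions the pooled ratio was 1.21 in members and 1.16 in alpha barcodes. Barcodes under 500 genes had 1.49 on the same corrected scale, and those of them inside the hormone limits 1.28, from 14 UMIs. Members and alpha barcodes thus lay close together in the pooled ratio. Both lay below the barcodes under 500 genes in mutant 1 (1.05 and 0.864 against 1.37) and mutant 2 (0.950 and 0.993 against 1.55). The same held in control 1 (1.62 and 1.42 against 1.68), while in control 2 both (1.52 and 1.59) lay above them (1.35).

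Beta factors per 1000 insulin UMIs, corrected in the same way, came to 0.773 in members and 0.779 in beta barcodes. Barcodes under 500 genes had 0.589, and those of them inside the hormone limits 0.540. By depth, members had 0.808 up to 3000 UMIs, 0.674 from 3000 to 8000 and 0.807 over 8000, while beta barcodes up to 3000 UMIs had 0.722. Gcg per 100 insulin UMIs, a ratio that the limits set, was 32.7 in members and 26 in barcodes under 500 genes inside the same limits.

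Sex-linked genes gave a separate reading, as each pool held both sexes. Xist is transcribed from the inactive X chromosome of female cells, and Y-linked genes only in male cells. Of barcodes with UMIs of either kind, both kinds were seen in 4 of 27 and 10 of 50 mutant members and in 3 of 23 and 6 of 28 control members. Over all libraries this was 18% (23 of 128, exact 95% interval 11.7 to 25.7%), against 5.86% of alpha (17 of 290) and 9.78% of beta barcodes (219 of 2240). Members were higher by 11.1 ± 7.78 points than alpha and by 7.47 ± 4.18 points than beta barcodes (SD, n = 4), in 4 of 4 libraries each, with an exact sign-flip p of 0.125, the smallest possible.

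Depth moved with this measure. Over 8000 UMIs the share was 26.5% of members (18 of 68), 12.4% of alpha (14 of 113) and 13% of beta barcodes (198 of 1525), and up to 8000 UMIs 8.33% of members (5 of 60), 1.69% of alpha and 2.94% of beta barcodes. The libraries were split at that depth. Members over 8000 UMIs had 37.0% in mutant 2 and 35.7% in control 2, above both classes of their library, but 14.3% in mutant 1, against 17.9% of alpha and 15.0% of beta barcodes, and 7.69% in control 1, against 18.8% of alpha and 11.7% of beta barcodes. The 101 members left at a Gcg limit of 10% did not keep the difference: it was -0.23 points against alpha and -3.94 points against beta barcodes.

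To see whether any gene departed from a plain addition of the classes, the summed members of each library were set against the mean alpha barcode plus the mean beta barcode of that library, with the gate hormones left out. Few genes were called as different from the sum, which does not show that the others equalled it. In edgeR's quasi-likelihood test with the library as a block and Benjamini-Hochberg adjustment, 24 of 10547 genes passed an adjusted p of 0.05 (0.228%), 22 higher (0.209%) and 2 lower (0.019%) in members. The alpha share of the non-hormone UMIs in this sum was 39.6 and 33.7% in the mutant and 37.5 and 36.4% in the control libraries. DESeq2 called 1 gene.

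No member of the lists of alpha, beta and shared endocrine transcription factors or of other alpha and beta genes passed (0 of 3, 0 of 2, 0 of 8, 0 of 8 and 0 of 10 tested). Their median log2 fold changes were 0.14, 0.07, -0.03, 0.04 and -0.06, beside 0.00 over all genes tested. Irx1 differed by 0.10 and Nkx6-1 by -0.02 on the log2 scale (edgeR adjusted p = 0.998 and 1.00). Prohormone processing and granule genes, such as Pcsk1, Cpe and Chga, had a median of 0.05, with 0 of 11 passing. In barcodes split by depth after seeing the data, some of these genes did pass: Iapp was higher in members by 0.27 over 8000 UMIs and by 0.51 up to 8000 UMIs (edgeR adjusted p = 0.00495 and 1.8e-07), and Ttr had log2 differences of -0.25 and -0.30 (edgeR adjusted p = 0.046 and 0.0115). At a Gcg limit of 10% Ttr was higher, by 0.40 (edgeR adjusted p = 0.0095). Up to 8000 UMIs the beta genes Ucn3 (0.50) and G6pc2 (0.42) were higher as well. So were the granule genes Scg2 (0.49) and Chgb (0.42), at edgeR adjusted p = 1.84e-05 and 0.00368.

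The 22 higher genes were mostly digestive enzymes of the exocrine pancreas, and all 9 genes of the acinar list were among them. Members summed to 1763 acinar UMIs, of which 1393 came from 1 barcode of control 2 with 21166 UMIs. By library the acinar list summed to between 40.2 and 4945 CPM in members, 36.0 and 324 CPM in alpha and 42.6 and 330 CPM in beta barcodes, with none of its 9 genes at 0. Igkc, an antibody light chain gene of plasma cells that was chosen after its values were seen, had 640 of its 642 member UMIs in mutant 1. Amy2a3, a pancreatic amylase gene, was the only one of the 22 genes that met the naming rule, at 1.68 ± 0.26 (log2, SE; edgeR adjusted p = 0.000142). Of its 145 member UMIs, 76 came from 1 barcode. It stood at 1.00 without the barcodes rich in genes of other cells and was not called without control 2, at 0.58 (edgeR adjusted p = 0.936).

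Without control 2 only 2 genes passed. Without the 8 members (and 5 alpha and 16 beta barcodes) in which genes of other cell types held at least 1% of UMIs, an alternative chosen after seeing the data, 12 genes passed, 9 of them higher. Outside the digestive enzymes and Igkc these were Hhex (2.64), Cd24a (1.53), Nrxn3 (1.34) and the gut and islet peptide gene Pyy (0.28), with Pdyn, mt-Nd3 and Npy lower. These names, too, were chosen after their values were seen, and 48 of the 93 Nrxn3 UMIs came from 1 barcode.

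Hhex, the transcription factor of somatostatin-producing delta cells, was chosen after its values were seen. It stood at 13.4 and 12.8 CPM in mutant members and 13.9 and 24.8 CPM in control members, against 1.71 and 2.76 CPM in the alpha plus beta sums of the mutants and 1.89 and 4.26 CPM in those of the controls. Its log2 difference was 2.55 ± 0.52 (SE; edgeR adjusted p = 0.00958), and members lay higher in 4 of 4 libraries. The count is small: 24 UMIs in 17 of 315 members. The members with Hhex had a median Sst share of 1.43%, against 0.0466% in members without it. At a limit of 1% for Sst and Ppy, Hhex was not among the genes called.

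Pdyn, which encodes the opioid precursor prodynorphin, was lower in members than in the sum. It had 99.3 and 60.3 CPM in mutant members and 13.9 and 18.6 CPM in control members, against 190 and 170 CPM in the mutant sums and 34.6 and 70.6 CPM in the control sums. The log2 difference was -1.28 ± 0.16 (SE; edgeR adjusted p = 6.4e-06), with the lower value in members in 4 of 4 libraries. Beta barcodes supplied nearly all of it, with 5322 UMIs in 21.9% of barcodes. The difference passed in barcodes over 8000 UMIs (-1.49) and turned to 0.10 in those up to 8000 UMIs, by the same edgeR test (edgeR adjusted p = 0.964). The mitochondrial gene mt-Nd3 was lower by 0.34 ± 0.08 (edgeR adjusted p = 0.0259).

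The Atf4 gene itself was the check on the mutant label. Members had 166 and 263 CPM in the mutant and 540 and 558 CPM in the control libraries. Alpha barcodes had 322 and 354 CPM in the mutant and 521 and 418 CPM in the control libraries, and beta barcodes 10.4 and 186 CPM in the mutant and 525 and 562.4 CPM in the control libraries. Mutant members lay between the beta and alpha barcodes of their library, and control members lay close to the control beta barcodes of their library.

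In the sums of the members, 15 of 6623 genes differed between mutant and control by edgeR's quasi-likelihood test (adjusted p under 0.05; 0.226%), 3 higher (0.0453%) and 12 lower (0.181%) in the mutants. DESeq2 called 3. Atf4 had a log2 fold change of -1.39 ± 0.24 (SE; edgeR adjusted p = 0.0336). Cdkn1a, the p53-induced inhibitor of the cell cycle, had 378 and 280 CPM in mutant members and 17.4 and 46.5 CPM in control members, a log2 fold change of 3.26 ± 0.35 (edgeR adjusted p = 0.0013). It stayed called in each of the 17 alternatives in which it was tested, at 2.78 to 4.14. At a Gcg limit of 10% it did not pass the filter on low counts and was not tested.

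Cacna1i, a T-type calcium channel gene, had 137 and 45.7 CPM in mutant members and no UMI in either control. Against the limit that a count of 0 allows (3 UMIs over both control libraries) it was at least 16.8-fold higher in the mutant members (edgeR adjusted p = 0.0336). Pde10a, a cyclic nucleotide phosphodiesterase, had 325 and 238 CPM in mutant members and 80.1 and 86.8 CPM in control members, a log2 fold change of 1.69 ± 0.27 (edgeR adjusted p = 0.0307). Nnat, an imprinted gene that in mouse beta cells promotes insulin secretion, had 26.8 and 21.9 CPM in mutant members and 101 and 124 CPM in control members, a log2 fold change of -2.27 ± 0.34 (edgeR adjusted p = 0.0286). Beta barcodes had close values, at 1.72 for Pde10a and -2.36 for Nnat (edgeR adjusted p = 0.00447 and 0.00273). Alpha barcodes had 0.81 for Pde10a (edgeR adjusted p = 0.207).

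Apart from Atf4 and Nnat, the lower genes were 10 genes of the exocrine pancreas, most of them digestive enzymes, such as Prss2 (-5.83), Cela1 (-4.09) and Amy2a5 (-3.32). The acinar-rich barcode of control 2 held 1393 of the 1763 UMIs of the acinar list in members. Mutant beta barcodes were lower too, at -2.36 for Prss2, -1.94 for Cela1 and -1.91 for Amy2a5 (edgeR adjusted p = 0.0384, 0.0426 and 0.00141). Alpha barcodes had -0.79, -0.90 and -0.55 for these genes, and none passed. At least 1 acinar UMI was seen in 19.4 and 28.7% of mutant members and 60.7 and 81.9% of control members. Beta barcodes had 23.1 and 22.7% in the mutant and 47.8 and 66.8% in the control libraries. Without the barcodes rich in genes of other cells 8 genes were called, 3 higher (Cdkn1a, Pde10a and Cacna1i) and 5 lower (Nnat, Amy2a5, Atf4, Prss2 and 2210010C04Rik). At a Gcg limit of 10%, which left 101 members, no gene was called by edgeR.

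Of the list of Atf4 and genes known from earlier results of these libraries to respond in mutant beta cells, 8 of 12 were tested, 2 passed higher (Cdkn1a and Cacna1i) and 2 lower (Atf4 and Nnat). Since the list was chosen on these samples, it is not independent evidence of its direction. Among members that did not pass were Ccng1, a p53 target (log2 fold change 1.42, edgeR adjusted p = 0.167), and Asns and Slc7a5, which Atf4 activates in amino acid stress (-0.67 and -1.20). No gene of the alpha, beta or shared transcription factor lists passed (0 of 3, 0 of 2 and 0 of 8 tested), with median log2 fold changes of -0.53, -0.10 and -0.20 beside 0.00 over all genes tested.

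**Figure D5:**
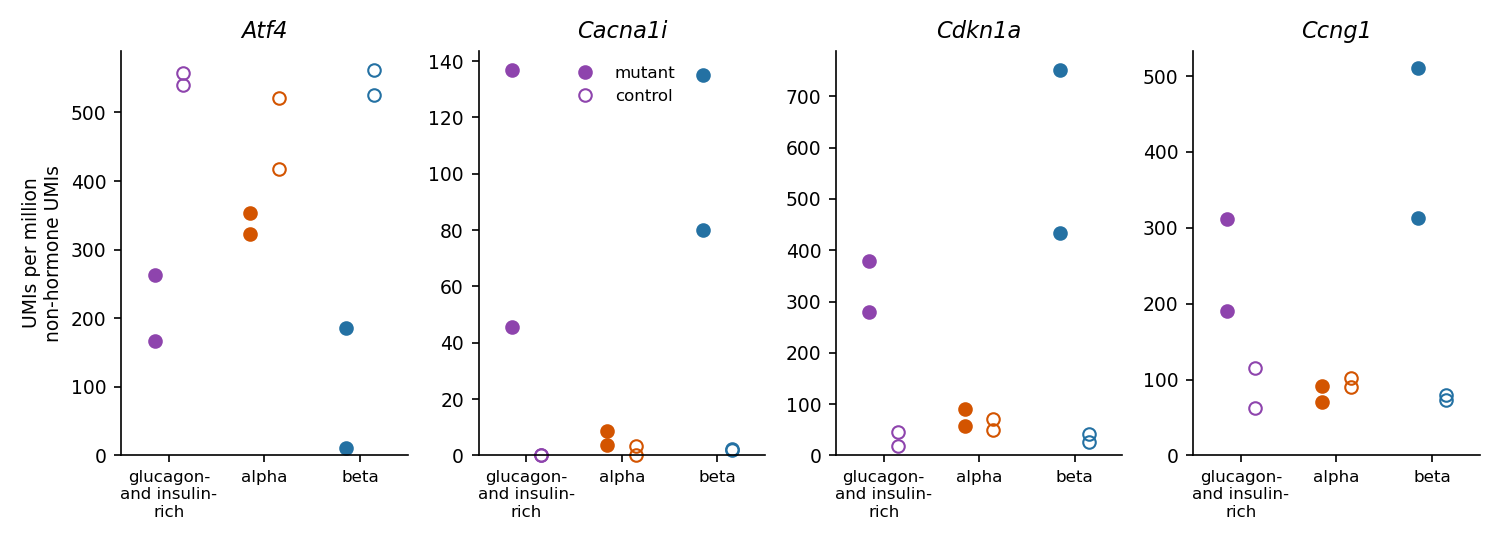
Level of Atf4, Cacna1i, Cdkn1a and Ccng1 in CPM, in glucagon- and insulin-rich, alpha and beta barcodes; filled points are the 2 mutant libraries and open points the 2 control libraries. For Cdkn1a the mutant members (378 and 280) lie above the control members (17.4 and 46.5) and below the mutant beta barcodes (752 and 434).

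The mutant effect in members was tested against that in each single-hormone class. Against beta barcodes 2 of 9744 genes passed (0.0205%), both with a lower effect in members. Gc had 311 and 240 CPM in mutant members and 212 and 220 CPM in control members, against 105.4 and 78.5 CPM in mutant and 27.8 and 34.1 CPM in control beta barcodes. Alpha barcodes had 529 and 514 CPM in the mutant and 537 and 541 CPM in the control libraries. The difference of effects was -1.22 ± 0.21 on the log2 scale (SE; edgeR adjusted p = 0.0258). Rasgrf2, a Ras guanine nucleotide exchange factor, had a difference of -2.14 ± 0.40 (edgeR adjusted p = 0.0374), from 34.9 and 32.9 CPM in mutant members and 73.1 and 55.8 CPM in control members, against 16.9 and 15.9 CPM in mutant and 7.56 and 6.66 CPM in control beta barcodes. Of 19 alternative settings, the call was lost in 8 for Gc and in 13 for Rasgrf2. For Atf4, Cdkn1a and Cacna1i the difference from beta barcodes did not pass (edgeR adjusted p = 0.978 each).

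Against alpha barcodes 5 of 9744 genes passed (0.0513%), 2 with a higher (0.0205%) and 3 with a lower effect (0.0308%) in members. Cdkn1a had 90.6 and 57.4 CPM in mutant and 70.3 and 50.1 CPM in control alpha barcodes, and its effect in members was larger by 3.05 ± 0.42 on the log2 scale (SE; edgeR adjusted p = 0.000335). Ccng1 had 311 and 190 CPM in mutant and 62.7 and 115 CPM in control members, against 92.0 and 70.3 CPM in mutant and 102 and 90.2 CPM in control alpha barcodes, a difference of 1.68 ± 0.31 (edgeR adjusted p = 0.0193). Over 8000 UMIs neither passed, at 1.96 for Cdkn1a and 2.17 for Ccng1 (edgeR adjusted p = 0.479 and 0.224). Prss2, Rnase1 and 2210010C04Rik, genes of the exocrine pancreas, had the lower effects, and none of these 3 was called without the barcodes rich in genes of other cells.

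Single barcodes of the mutants could be read for Atf4 together with the genes that rose. In mutant 1, where Atf4 was scarcest in beta barcodes, it was seen over 8000 UMIs in 11 of 19 members (57.9%, exact 95% interval 33.5 to 79.7%), in 43 of 47 alpha barcodes (91.5%) and in 26 of 429 beta barcodes (6.06%). All 19 members held Cacna1i or Cdkn1a, against 13 of 47 alpha and 404 of 429 beta barcodes. Atf4 and one of these genes together were seen in 11 of 19 members (57.9%), 13 of 47 alpha (27.7%) and 25 of 429 beta barcodes (5.83%), so that in members the joint count equals that of Atf4. In mutant 2, where beta barcodes held more Atf4, it was seen in 26 of 32 members, 38 of 45 alpha and 256 of 502 beta barcodes over 8000 UMIs, and together with one of these genes in 17 of 32 members (53.1%), 9 of 45 alpha (20%) and 140 of 502 beta barcodes (27.9%). Depth differed in mutant 1, with medians of 16008 UMIs in these members, 11653 in alpha and 16688 in beta barcodes.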

How the data were processed

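The 4 libraries were made with a droplet method (inDrops, TruDrop version) that tags each RNA molecule with a UMI, per the labels' protocols. The authors deposited raw UMI counts per gene and barcode as sparse matrices of 21594 gene symbols, with doublets not stated to have been removed. The submitters' processing notes name mm10 and Seurat, and the aligner is not given in the sources used here. No gene count exceeded 4093, near the 4096 sequences that a UMI of 6 bases allows, so counts of hormone genes in deep barcodes are compressed. No doublet caller was run, as the barcodes described are the kind such a caller marks, and the human and tdT-positive cells were not told apart here.

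Barcodes were classed by the limits given above. Levels (CPM) are UMIs per 1000000 UMIs other than Gcg, Ins1, Ins2, Sst and Ppy. Counts were summed per library and class and tested with edgeR 4.0.16 (TMM, filterByExpr, quasi-likelihood F test) in R 4.3.3 without these genes, with Benjamini-Hochberg adjustment over all genes tested and a threshold of 0.05. The sum of the classes was the mean alpha plus the mean beta barcode of a library. Fits were run on simulated data with known changes. There the fit of mutant against control missed most of the smaller changes. So did the fits of the mutant effect against that in beta and in alpha barcodes. Each fit made some false calls. A gene that was not called is thus not shown to be unchanged. DESeq2 1.42.0 was an alternative. Shares carry exact 95% intervals (scipy 1.17.1), which cover counting error only, and measures over libraries an exact permutation test. Thinned shares are expected values. Genes were named when they belonged to the lists of transcription factors and alpha and beta genes, or were among the 10 largest changes each way of genes called, with an average log2 level of at least 5 and the same direction in every library. Some genes of these lists are not reported here and enter no list count or sum. The members and lists were chosen with earlier results of these data known.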

Additional observations from a re-analysis of the deposited data

Results flagged for a closer look

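In 7 genes the mutant effect on the glucagon- and insulin-rich barcodes differed from that on a single-hormone class by edgeR's test of the difference itself, on the log2 scale. Against beta barcodes the difference was -1.22 for Gc (adjusted p = 0.0258) and -2.14 for Rasgrf2 (adjusted p = 0.0374). Against alpha barcodes it was 3.05 for Cdkn1a (adjusted p = 0.000335) and 1.68 for Ccng1 (adjusted p = 0.0193). It was also -4.99 for Prss2, -4.37 for Rnase1 and -3.67 for 2210010C04Rik, whose member UMIs came mostly from control 2. Several of these calls depended on the setting. Against beta barcodes the call was lost in 8 of 19 alternative settings for Gc and in 13 of 19 for Rasgrf2. Against alpha barcodes it was lost in 2 of 18 for Cdkn1a, 7 of 18 for Ccng1 and 10 of 18 for Prss2. Both Gc and Rasgrf2 were higher in alpha than in beta barcodes, and the part of the alpha RNA of a barcode in these differences was not tested.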

How the results depend on the processing

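Of 169 comparison values under 25 settings, 127 stayed the same as in the main setting, 25 were weaker, 14 stronger and 3 reversed. For numbers of genes called, the same only means a number close to the main one, whatever the genes or their direction. Settings that split barcodes by depth or left out barcodes rich in genes of other cells, or a library from the hormone pairs, were chosen after seeing the data. The depth difference from alpha barcodes turned to -0.11 (log2) without hormone UMIs. At Gcg of at least 10% the sex-gene differences turned to -0.23 and -3.94 points. The cause was not tested.

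For mutant against control (15 genes called), edgeR called 7 at a mitochondrial share under 10%, 0 at Gcg of at least 10%, 8 without barcodes rich in other cells' genes, 7 over and 3 up to 8000 UMIs, 71 with no filter and 26 to 58 with 1 library left out; DESeq2 called 3. For members against the sum (24), 12 were called without those barcodes, 14 over and 44 up to 8000 UMIs, 47 with no filter, 1 by DESeq2 and 2 to 35 with 1 library left out. For the effect against beta barcodes (2), 1 was called at 1000 genes, at Sst and Ppy under 1%, over 8000 UMIs and by DESeq2, 0 at Gcg of 10%, at insulin of 20% and up to 8000 UMIs, 20 with no filter and 0 to 14 with 1 library left out. For the effect against alpha barcodes (5), 0 were called at Gcg of 10% and over 8000 UMIs, 9 at Sst and Ppy under 1%, 2 with stricter classes, without barcodes rich in other cells' genes and by DESeq2, 26 with no filter and 2 to 26 with 1 library left out.

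With the replicate number as a block, 32 genes were called between mutant and control, and 0 for the effect against beta barcodes with the replicate block in place of the library. Same-numbered libraries had deviations that correlated at -0.01 in members, so the libraries are taken to share only a number.

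Some single genes against the sum changed sign (log2 values). At Gcg of 10% Pdx1 had -0.22 and Iapp -0.30. At insulin of 20% Etv1 had -0.077, Nkx6-1 0.040 and Ttr -0.10. Nkx6-1 had 0.024 at Sst and Ppy under 1%, and Ttr -0.0071 with stricter classes. Over 8000 UMIs Irx1 had -0.13, Irx2 -0.12, Etv1 -0.15, Nkx6-1 0.15 and Ttr -0.25. Up to 8000 UMIs Pdyn had 0.10, Irx1 -0.30, Irx2 -0.19, Etv1 -0.070, Nkx6-1 0.30 and Ttr -0.30. With no filter Ttr had -0.030. With the alpha share matched on Gcg Nkx6-1 had 0.0053 and Ttr -0.019. With 1 library left out Ttr ran from -0.033 to 0.056.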
